A study of Mus musculus with 1 sample.

Results

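The genes described here are 34 genes of glucose use: glucose transporters, the enzymes of glycolysis and their isozymes, lactate dehydrogenases and lactate carriers, the bifunctional regulators of phosphofructokinase, the pentose phosphate enzymes, Bpgm and Pdk1. They were chosen by name, and all 34 were among the 25661 genes of the count table. The cells were bone marrow progenitors of 1 naïve mouse and 1 mouse injected with LPS (bacterial lipopolysaccharide), sorted as cKit+Lin- progenitors, GMP-MoPs or cMoPs and captured as 1 single-cell library. Each sorted sample carried 1 of 5 barcoded tags, of which A963 and A965 had 15000 cells loaded and A961, A962 and A964 had 100. The labels used here do not say which tag is which population or mouse, and strain, sex, age and LPS dose are not given in the sources used here. No sample was replicated, so no test was made. Every interval given is an exact 95% counting interval on summed counts. It leaves out any spread between mice and between the cells of a gate.

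Glycolysis splits glucose to pyruvate in the cytosol, and lactate dehydrogenase then turns pyruvate to lactate, which leaves the cell with a proton. The pentose phosphate pathway branches off at glucose 6-phosphate and makes NADPH, which neutrophils use for the oxidative burst, and ribose for nucleotides. Red cells lose their mitochondria as they mature and then live on glycolysis alone. They also make 2,3-bisphosphoglycerate, which lowers the oxygen affinity of haemoglobin. Several steps have isozymes encoded by separate genes, and cell types differ in which of them they use.

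The table held 10528 usable cells with 1 tag each, with totals of 8822 to 140994 counts per cell. Cells were sorted into 13 gates by summed counts of lineage markers that hold none of the 34 genes, which placed 9424 cells. The gates held 169 stem, 256 lymphoid, 59 megakaryocyte, 105 basophil/mast, 735 erythroid, 780 GMP, 547 early neutrophil, 2607 neutrophil, 540 late neutrophil, 805 Mpo-high monocyte, 2390 monocyte, 154 plasmacytoid dendritic and 277 conventional dendritic cells. GMP stands for cells that passed the threshold of the azurophil granule panel alone. They were not free of neutrophil genes: a list of 10 secondary granule genes summed to 22556 CPM there. That sum was 4911 in stem, 5577 in Mpo-high monocyte, 7672 in monocyte and 186183 in early neutrophil cells. Early neutrophil cells had azurophil and secondary granule genes, and Mpo-high monocyte cells azurophil and monocyte genes. Kit, the gene of the sorting marker, was at 129.8 CPM in stem and 36.9 in GMP cells, but at 7.06 in neutrophil, 5.24 in monocyte and 4.06 in late neutrophil cells. The basophil/mast gate was also led by the eosinophil genes Prg2, Epx and Prg3. Median totals ran from 12241.5 counts in the plasmacytoid dendritic to 41069 in the erythroid gate. Levels, here and below, are CPM, a gene's counts in a gate per 1000000 counts of that gate. They compare a gene between gates, not genes with each other. Shares of a family's counts are likewise read between gates. A gene was counted as higher or lower where the ratio of CPM, with 10 CPM added to both, was at least 1.5-fold. Printed ratios have nothing added.

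Promoters of 4 members are shown: Pklr, Pfkm and Pkm, whose levels set the erythroid gate apart from the others, and Ldha, which differed most within it. Each is the stretch of 250 bases before a start listed by RefSeq (GRCm38.p6, plus strand). Capitals mark AGATAA, one form of the GATA motif, in Pklr and Pfkm, and ACGTG, the core of the hypoxia response element, in Pkm and Ldha, on either strand. The Pklr window is chr3:89135892-89136141, the Pfkm window chr15:98108221-98108470, the Pkm window chr9:59656977-59657226 and the Ldha window chr7:46845554-46845803.
Pklr: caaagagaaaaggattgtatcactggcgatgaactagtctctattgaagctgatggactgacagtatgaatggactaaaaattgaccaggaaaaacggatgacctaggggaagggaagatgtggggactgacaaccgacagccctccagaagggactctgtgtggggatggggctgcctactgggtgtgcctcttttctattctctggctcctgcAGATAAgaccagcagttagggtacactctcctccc
Pfkm: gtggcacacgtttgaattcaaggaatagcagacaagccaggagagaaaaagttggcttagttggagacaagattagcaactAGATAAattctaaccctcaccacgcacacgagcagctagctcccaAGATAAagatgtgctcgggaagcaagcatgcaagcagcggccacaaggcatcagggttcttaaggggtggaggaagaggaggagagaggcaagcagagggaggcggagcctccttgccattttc
Pkm: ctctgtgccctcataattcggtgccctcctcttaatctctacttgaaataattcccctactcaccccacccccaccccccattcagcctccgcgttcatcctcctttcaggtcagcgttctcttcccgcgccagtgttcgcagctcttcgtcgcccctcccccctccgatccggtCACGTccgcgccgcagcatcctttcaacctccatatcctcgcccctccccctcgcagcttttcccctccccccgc
Ldha: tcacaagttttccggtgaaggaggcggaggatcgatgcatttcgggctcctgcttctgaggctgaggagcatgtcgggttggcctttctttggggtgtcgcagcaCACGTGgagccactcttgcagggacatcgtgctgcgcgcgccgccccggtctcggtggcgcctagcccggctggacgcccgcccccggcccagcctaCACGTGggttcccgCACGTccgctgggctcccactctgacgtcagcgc
RefSeq gave 48 windows (250 bases before to 50 after a start) for 33 members. Only the first 250 bases of a window were searched, for members and for all genes. AGATAA or its reverse complement TTATCT was in 4 of these 48 windows, those of Pklr and Pfkm, and in 9.99% of 32851 windows of all genes. A further GATA-type motif, TGATAA, searched on both strands like the others, was in 5 of the 48 windows (10.4%), of Pfkm, Aldoa, Pkm, Slc16a1 and Pfkfb4, against 7.94% of all windows. ACGTG or CACGT was in 15 of the 48 windows (31.3%), against 16.6% of all windows, and belonged to 12 members. CACGTG, which contains ACGTG, was in 4 of the 48 windows and in 6.02% of all windows. The CCAAT box was in 15 of the 48 windows (31.3%) and in 33.8% of all windows. Motifs and windows were picked after levels were seen, some windows of 1 gene overlap, and a match is a description of letters.

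**Figure D1:**
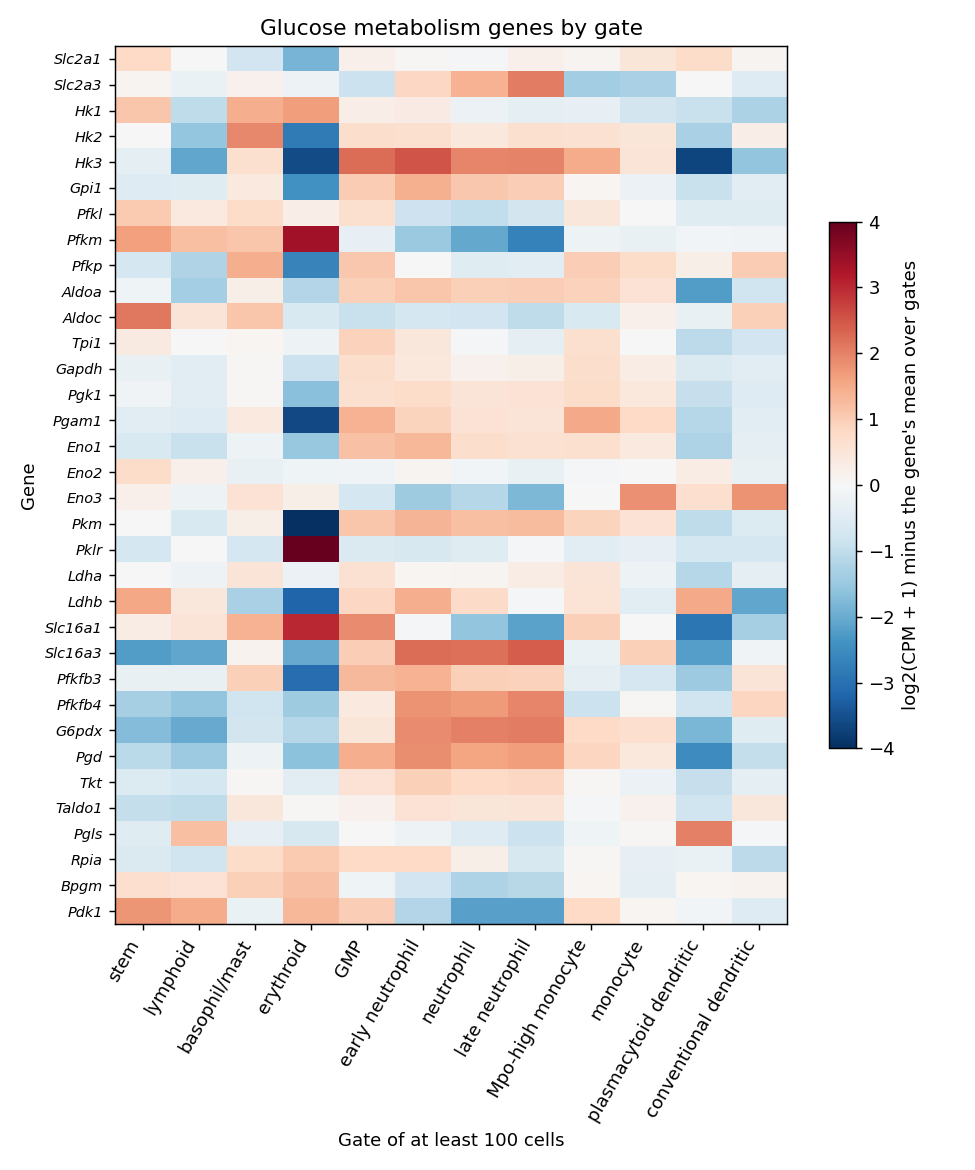
Level of each of the 34 genes in the 12 gates of at least 100 cells, as log2(CPM + 1) minus the gene's mean over those gates; red is above that mean and blue below it, with colours ending at 4. The erythroid column is red for Pklr, Pfkm, Slc16a1 and Hk1 and blue for Pkm, Pgam1 and Hk3, and the neutrophil columns are red for Slc2a3, Slc16a3, Pfkfb4 and G6pdx.

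Every member differed by at least 3-fold between its highest and lowest gate of at least 100 cells, except Gapdh (2.99-fold, interval 2.94 to 3.04) and Eno2, whose highest level of 1.01 CPM rested on 3 counts. The gates did not share 1 ranking. Of the glucose transporters, Slc2a3 (GLUT3) stood at 11.8 CPM in GMP, 40.5 in early neutrophil, 60.8 in neutrophil and 96.3 in late neutrophil cells. Along those gates each level was above the one before it, in A963 and in A965 alike. It was lowest, at 7.87 CPM, in Mpo-high monocyte cells. Slc2a1 (GLUT1) was sparse everywhere, at most 6.09 CPM in the gates of at least 100 cells, from 18 counts in stem cells. The erythroid gate held 4 counts of it (0.126 CPM, interval 0.0343 to 0.322).

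The hexokinases, which trap glucose by phosphorylation, changed over between gates. Hk1 gave 98.3% of hexokinase counts in erythroid cells, 94.2% in the small megakaryocyte gate, 75.8% in stem cells and 83.3% in plasmacytoid dendritic cells. By level the gates were closer: 208 CPM in erythroid, 178 in basophil/mast and 140 in stem cells. Hk3 gave 67.8% in GMP, 71.5% in early neutrophil and 63.2% in Mpo-high monocyte cells. Hk3 was at 253 CPM in early neutrophil, 207 in GMP and 170 in neutrophil cells, and at 2.42 CPM in plasmacytoid dendritic and 2.64 in erythroid cells. Hk2 was highest in basophil/mast cells at 49.5 CPM, above GMP at 20.4, and lowest in erythroid cells at 0.881.

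Phosphofructokinase, the committed step, has 3 subunit genes. Pfkm, the muscle type, gave 74.3% of the family's counts in erythroid cells, 29.8% in stem cells and 1.08% in late neutrophil cells. Its level was 83.6 CPM in erythroid cells (79.5 in A963 and 101 in A965), against 24.7 in stem cells (28.9 and 21.0). Late neutrophil cells had 3 counts of Pfkm. Pfkp, the platelet type, gave 51.0% in GMP and 65.3% in conventional dendritic cells, and 1.99% in erythroid cells. Pfkl, the liver type, was at 46.7 CPM in stem, 34.7 in GMP and 10.4 in neutrophil cells. Senp1 overlaps Pfkm on the opposite strand, and whether counting used strand is not stated in the sources used here.

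Pyruvate kinase makes the last ATP of glycolysis, and its 2 genes separated by gate. Pklr, the liver and red cell gene at chr3:89136142-89146784, was at 67.2 CPM in erythroid cells (69.3 in A963, 59.3 in A965). That gate held 2136 of the 2185 Pklr counts of all gated cells (97.8%), and 5 of the other 12 gates had none. Stem cells had no Pklr count, which makes erythroid cells at least 66.3-fold higher when the stem gate is set at 3 counts. Pkm, the general form, was at 12.2 CPM in erythroid cells, 282 in stem cells and 739 in early neutrophil cells. Both tags showed it: 12.7 CPM in erythroid against 265 in stem cells of A963, and 10.4 against 297 in A965. With each cell thinned to 8000 counts, Pklr alone was seen in 230 of 735 erythroid cells, Pkm alone in 41, both in 18 and neither in 446. Thinned shares of cells with Pklr were 33.7% in the erythroid gate and at most 0.741% in the others. The low Pkm counts of erythroid cells can be set beside neutrophil RNA in that gate: secondary granule genes had a median of 5.42 counts per 10000 there and 1218 in neutrophil cells, and their part in the Pkm counts was not tested.

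**Figure D2:**
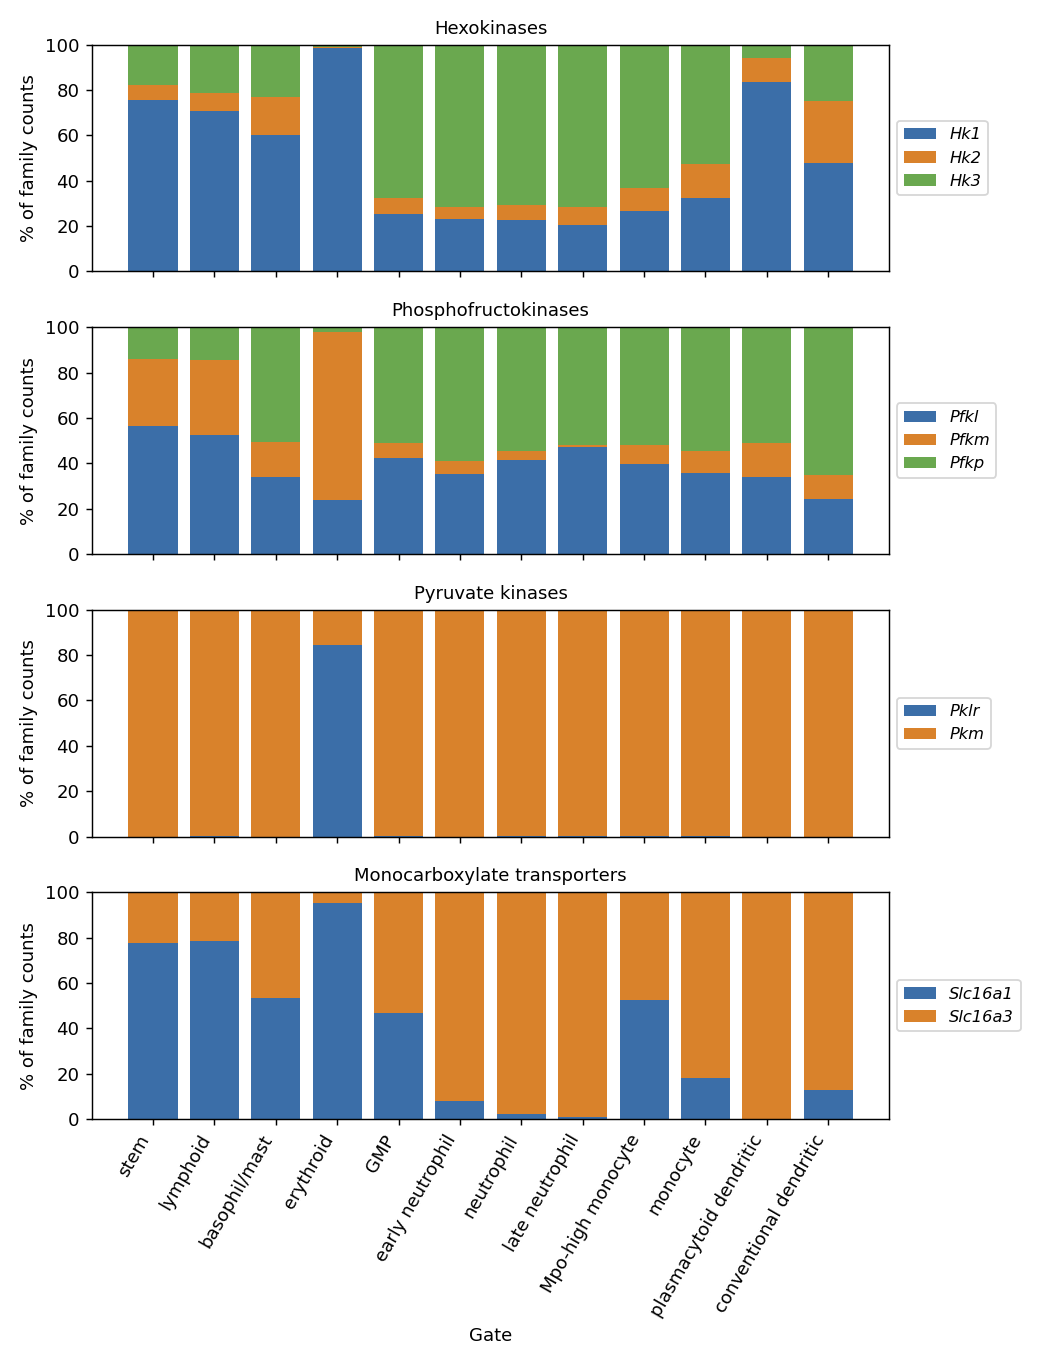
Share of each isozyme gene in its family's summed counts, in percent, in the 12 gates of at least 100 cells, for hexokinases, phosphofructokinases, pyruvate kinases and monocarboxylate transporters. Hk1, Pfkm, Pklr and Slc16a1 gave 98.3%, 74.3%, 84.6% and 95.4% of their families in the erythroid gate; the plasmacytoid dendritic bar for the transporters rests on 2.42 CPM.

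The shared enzymes between these steps were highest in the granulocyte and monocyte progenitor gates. Gpi1, which makes fructose 6-phosphate, was at 1251 CPM in early neutrophil and 87.3 in erythroid cells. Aldoa, the main aldolase gene, was at 712 CPM in early neutrophil and 69.2 in plasmacytoid dendritic cells, and Aldoc at 9.47 in stem cells and under 5 CPM in the other gates. Tpi1 (412 CPM) and Gapdh (1764) peaked in GMP, and Pgk1 (371) and Eno1 (636) in early neutrophil cells. Pgam1, the phosphoglycerate mutase, was at 690 CPM in Mpo-high monocyte, 633 in GMP and 18.9 in erythroid cells. Summed over Aldoa, Tpi1, Gapdh, Pgk1, Pgam1, Eno1, Pkm and Ldha, levels were 5492 CPM in GMP, 5171 in Mpo-high monocyte, 5015 in early neutrophil, 2619 in stem and 1399 in erythroid cells. Copies named for Gapdh, Pgk1, Pgam1 and Eno1 also held counts, of which Eno1b had 103 CPM over all cells beside 355 for Eno1, so reads of these genes may be split. Eno3, the muscle enolase, was at 21.0 CPM in monocyte and 20.3 in conventional dendritic cells, 2 gates that did not differ beyond counting error, and at 0.773 in late neutrophil cells.

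At the end of the pathway, Ldha was at 737 CPM in megakaryocyte cells (59 cells), 516 in GMP and 151 in plasmacytoid dendritic cells. Ldhb, whose product favours lactate use, was at 64.6 CPM in stem, 63.9 in plasmacytoid dendritic and 60.7 in early neutrophil cells, 3 levels whose intervals overlapped. It was at 1.48 CPM in erythroid cells. The lactate carriers also changed over between gates, but not in step with the hexokinases. Slc16a1 (MCT1) was at 59.2 CPM in erythroid cells and gave 95.4% of the pair's counts there. Slc16a3 (MCT4) was at 83.1 CPM in late neutrophil cells and gave 99.2% there. GMP lay between, with 46.8% from Slc16a1. Plasmacytoid dendritic cells had no Slc16a1 count, which allows up to 1.79 CPM.

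The pentose phosphate genes were highest in neutrophil gates, apart from Pgls and Rpia. G6pdx, which starts the oxidative branch (chrX:74409483-74429194), was at 168 CPM in GMP, 443 in early neutrophil, 487 in neutrophil and 501 in late neutrophil cells, and at 29.0 in lymphoid cells. From neutrophil to late neutrophil cells the tags went opposite ways, from 351 to 437 CPM in A963 and from 561 to 527 in A965. Pgd, the next dehydrogenase, was at 486 CPM in early neutrophil and 22.3 in plasmacytoid dendritic cells. Tkt and Taldo1, of the reversible branch, were at 874 and 675 CPM in early neutrophil cells. Pgls, the lactonase between G6pdx and Pgd, was at 1484 CPM in plasmacytoid dendritic and 846 in lymphoid cells, and at most 380 in the other gates. Cells passing both the lymphoid and the plasmacytoid dendritic panel were placed in the latter gate, whose lymphoid genes had a median of 79.1 counts per 10000 against 40.8 in the lymphoid gate. Their part in the Pgls counts was not tested. Fam129c overlaps Pgls on the same strand and was also highest in those gates, at 32.4 and 17.4 CPM, and its part in the Pgls counts was not tested. Rpia, the ribose 5-phosphate isomerase, was highest in erythroid cells at 140.8 CPM.

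Pfkfb3 and Pfkfb4 make the activator of phosphofructokinase. Pfkfb3 was at 48.1 CPM in early neutrophil, 44.5 in GMP and 1.26 in erythroid cells, and Pfkfb4 at 41.8 in late neutrophil and 2.69 in lymphoid cells. Pdk1, which switches off pyruvate dehydrogenase, ran the other way: 39.9 CPM in stem, 32.5 in lymphoid, 22.8 in GMP, 4.30 in early neutrophil and 1.64 in late neutrophil cells. Bpgm, the maker of 2,3-bisphosphoglycerate, was highest in erythroid cells at 20.9 CPM and lowest in neutrophil cells at 3.06. Basophil/mast cells were near the top at 17.6 and stem cells at 14.2. Its ratio of erythroid over stem cells was 1.20 in A963 (interval 0.800 to 1.90) and 1.88 in A965 (1.14 to 3.26).

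Set against stem cells, the erythroid gate was higher for 5 of the 34 members, where 5.91% of all genes were higher, and lower for 14, where 12.1% were lower. Among the 9088 genes with at least 10 CPM in either gate, 16.0% were higher and 29.0% lower. The members' median log2 ratio was -0.41 and that of these 9088 genes -0.16. The higher members were Pklr, Slc16a1 (7.30-fold, interval 4.89 to 11.4), Pfkm (3.39-fold, 2.69 to 4.34), Rpia (3.13-fold, 2.63 to 3.75) and Taldo1 (2.00-fold, 1.86 to 2.16). The lower ones included Pkm (23.0-fold lower, interval 20.4 to 26.0), Pgam1 (9.48-fold lower, 8.42 to 10.7), Gpi1 (3.77-fold lower, 3.51 to 4.06), Pgk1 (2.92-fold lower) and Aldoa (2.01-fold lower). The direction of Pkm, Pgam1, Gpi1, Pfkm, Slc16a1 and Rpia was the same in A963 and A965 taken alone. Aldoa was 2.54-fold lower in A963 but 1.36-fold lower in A965, short of the 1.5-fold rule.

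Other pathway genes moved in both directions between these gates. Of 16 genes of the tricarboxylic acid cycle 5 were higher and 0 lower, and of 12 genes of glycogen metabolism 0 were higher and 8 lower. Cell cycle genes were higher too: 10 of 12 of an S phase list and 12 of 12 of a G2/M list. Slc2a4 (GLUT4), which was no member, had 168 counts in erythroid cells (5.29 CPM), 0 in stem cells and at most 1 in any other gate.

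Within the erythroid gate, 446 cells with at least 100 globin counts per 10000 were set against 289 cells below that. Bpgm was 2.01-fold higher (26.7 against 13.3 CPM, interval 1.69 to 2.40). It was 1 of 34 members higher, against 1.61% of all genes. Ldha was at 155 CPM against 458 (2.95-fold lower, 2.82 to 3.09), and Gpi1, Aldoa, Tpi1, Pgk1, Pgam1, Eno1, Pgd and Pgls were lower by 1.53- to 2.64-fold. These 9 compare with 4.07% of all genes lower. Shares among genes of at least 10 CPM were not worked out here, nor for the steps through early neutrophil and Mpo-high monocyte cells below. Pklr was at 74.2 CPM below and 62.0 above the globin threshold, and Pfkm gave 68.8% and 78.7% of its family. Globin took 6.67% of counts in the globin-high cells.

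Set against GMP, neutrophil cells were higher for a glucose carrier, a lactate carrier, Pfkfb4 and G6pdx. The 4 higher members (2.31% of all genes were higher, and 6.99% of those with at least 10 CPM in either gate) were Slc2a3 (5.15-fold, interval 4.65 to 5.72), G6pdx (2.89-fold, 2.81 to 2.98), Pfkfb4 (2.58-fold, 2.33 to 2.86) and Slc16a3 (2.34-fold, 2.19 to 2.51). The 6 lower members (14.4% of all genes and 43.7% of the same subset were lower) were Slc16a1 (17.9-fold lower, 14.5 to 22.4), Pdk1 (13.7-fold lower, 11.1 to 16.9), Pfkl (3.32-fold), Pfkp (3.04-fold), Tpi1 (1.93-fold) and Pgam1 (1.76-fold). All 10 had the same direction in A963 and A965 alone. The 4 higher members were already higher in early neutrophil cells over GMP, where 2.14% of all genes were higher. In that step 4 members were lower (7.21% of all genes): Pfkl, Pfkp, Slc16a1 and Pdk1. From early neutrophil to neutrophil cells 0 members were higher (0.347% of all genes) and 2, Eno1 and Ldhb, were lower (3.06%).

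Totals bear on this comparison. Lineage markers, globin and mitochondrial genes took 36.5% of counts in neutrophil and 8.9% in GMP cells, and genes of at least 10 CPM in both gates had a median log2 ratio of -0.54. The members' median was -0.15. Under median-of-ratios scaling it was 0.05, with 8 members higher and 4 lower. Shares of all genes were not worked out under that scaling, which shifts every gene alike. The 4 that joined the higher ones were Pgd, Pkm, Taldo1 and Tkt, and Tpi1 and Pgam1 were no longer counted as lower.

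**Figure D3:**
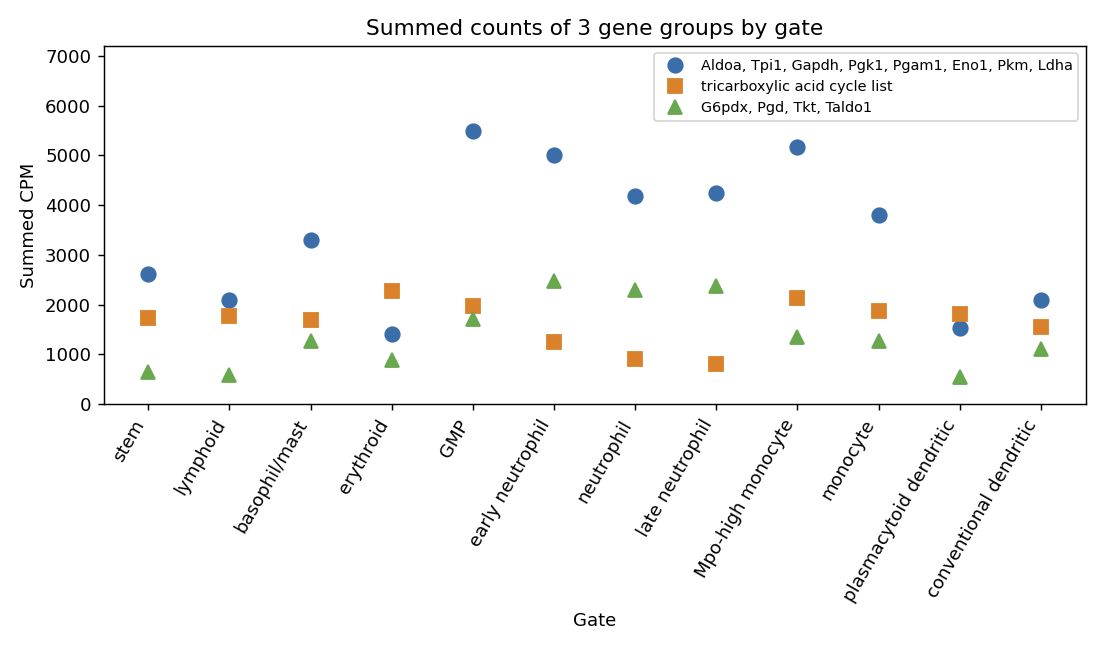
Summed CPM in the 12 gates of at least 100 cells for 8 glycolytic members (circles), a list of 16 genes of the tricarboxylic acid cycle (squares) and 4 pentose phosphate members (triangles). From GMP to late neutrophil cells the squares go from 1972 to 806 CPM and the triangles end above where they start. Symbols compare gates within a group of genes, not groups with each other.

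Genes around the members differed along the same gates. Of 16 tricarboxylic acid cycle genes, 0 were higher and 15 lower in neutrophil than in GMP cells, with a median log2 ratio of -1.17, below the -0.49 of the 8006 genes of at least 10 CPM in either gate. Their sum was 1972 CPM in GMP, 1256 in early neutrophil, 911 in neutrophil and 806 in late neutrophil cells. Adpgk, an ADP-dependent glucokinase, was 8.21-fold higher in neutrophil cells (419 against 51.0 CPM), and of 12 glycogen genes 2 were higher, Pygl (2.84-fold) and Ugp2 (2.03-fold), and 3 lower, Pygb, Phka2 and Phkb. Myc was 25.6-fold lower.

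Late neutrophil cells differed from neutrophil cells in few members. Slc2a3 was 1.58-fold higher (interval 1.48 to 1.70), the 1 higher member, against 0.483% of all genes and 1.89% of those with at least 10 CPM. Rpia (1.86-fold lower) and Ldhb (1.83-fold lower) were the 2 lower members, against 1.77% and 7.19%. Of late neutrophil cells 26.7% lay within 20% of the threshold that set them apart, and the count of higher members was 0 after thinning to 8000 counts, without the Scrublet doublet calls, with looser gates, with cells placed by their highest marker score and in A965 alone. The count of lower members was 0 with looser gates and with the highest marker score, 1 under median-of-ratios scaling and in A963 alone, and 4 with 1 CPM added.

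Monocyte cells were lower than GMP for 13 members, against 3.39% of all genes and 9.83% of the 8414 genes of at least 10 CPM. Among them were Pfkfb3 (4.15-fold lower, interval 3.79 to 4.55), Slc16a1 (4.10-fold), Hk3 (3.33-fold, 3.20 to 3.46), Gpi1 (2.40-fold, 2.36 to 2.44), Hk1, Pgd, Tkt, Tpi1, Eno1, Ldha, Ldhb, Rpia and Pdk1. The members' median log2 ratio was -0.40, and that of the 8414 genes -0.04. The 1 higher member was Eno3 (7.51-fold, 6.10 to 9.35), against 4.11% of all genes and 11.5% of the 8414. The tags differed here. In A963 alone Eno3 was at 8.48 against 2.71 CPM, which was not counted as higher, and G6pdx at 185 against 102, which was. In A965 alone Eno3 was at 28.7 against 2.88 CPM and G6pdx at 194 against 197. Mpo-high monocyte cells were lower than GMP for 7 members and higher for 0, against 1.85% and 1.43% of all genes. From Mpo-high monocyte to monocyte cells, Eno3 and Slc16a3 were higher and Hk3, Tpi1, Pgam1, Ldha and Ldhb lower, 2 and 5 of 34 against 1.91% and 0.830% of all genes. Slc2a6 (GLUT6), which was no member, was 13.5-fold higher in monocyte than in GMP cells (18.6 against 1.38 CPM).

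Between the tags loaded with 15000 cells, 7 members were higher in A965 than in A963 over all cells and 2 lower, against 0.624% and 0.861% of all genes. Of the 8025 genes with at least 10 CPM in either tag, 1.93% and 2.54% were. With each cell thinned to 8000 counts 3 members were higher, and with 1 CPM added 4 were lower. The higher members were Slc16a3 (44.9 against 21.1 CPM, 2.13-fold), G6pdx (303 against 172, 1.77-fold), Pgd, Gpi1, Eno1, Pkm and Aldoa (1.55- to 1.64-fold). Pklr (2.59 against 15.6 CPM) and Pfkm (9.13 against 22.6) were the lower ones. The tags differed in their cells: the erythroid gate held 145 of 5567 cells of A965 and 582 of 4716 of A963. Inside that gate Pklr was at 59.3 and 69.3 CPM and Pfkm at 101 and 79.5, and neither was counted as lower. In the 11 gates with at least 50 cells of each tag, Pgd, Eno1, Pkm and Aldoa were higher in 0. Gpi1 was higher in 1 of those gates, Slc16a3 in 3 and G6pdx in 4. The intervals of Pgd, Eno1, Pkm and Aldoa lay above 1 in 7, 7, 6 and 8 of them. The share of all genes with such intervals was not worked out.

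Inside 11 gates with at least 50 cells of each tag, 4.01% of 374 member values were higher in A965 and 3.74% lower. For all genes with at least 10 CPM in either tag, pooled over the same gates, these shares were 3.13% and 3.49%. The member shares also count values under 10 CPM in both tags, so they are not on the same base as these. Whether the members as a group differ from all genes was not tested, and the differences below are those of single genes. Gate by gate, the share of all genes that was lower was 2.47% in stem, 1.80% in lymphoid, 0.0896% in erythroid, 0.140% in GMP, 0.760% in early neutrophil, 0.187% in neutrophil, 0.869% in late neutrophil, 0.140% in Mpo-high monocyte, 0.156% in monocyte, 5.07% in plasmacytoid dendritic and 1.77% in conventional dendritic cells. The share that was higher was 2.89%, 1.24%, 0.183%, 0.370%, 0.581%, 0.386%, 0.787%, 0.257%, 0.900%, 2.84% and 1.65% in the same order.

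Ldhb was lower in A965 in 8 of the 11 gates, the most of any member. Its CPM was 27.7 in A965 against 65.3 in A963 in GMP, 47.7 against 99.8 in early neutrophil, 27.4 against 55.6 in neutrophil, 12.0 against 38.9 in late neutrophil and 17.2 against 53.7 in Mpo-high monocyte cells. The ratios ran from 0.309 in late neutrophil (interval 0.231 to 0.411) to 0.800 in lymphoid cells (0.565 to 1.13). Its intervals lay under 1 in 9 gates, and reached 1 in the lymphoid and erythroid gates. Over all cells Ldhb was at 22.1 CPM in A965 and 36.4 in A963. In the small tags it was at 45.8 CPM in A961, 35.5 in A962 and 27.1 in A964 over all cells.

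G6pdx was the member higher in A965 in the most gates, 4 of 11: stem (47.7 against 20.9 CPM), GMP (197 against 102), early neutrophil (497 against 268) and neutrophil (561 against 351). Its ratios there were 2.28, 1.92, 1.85 and 1.60. In late neutrophil cells it was 1.21 (interval 1.13 to 1.28), and in erythroid cells 1.02 (0.903 to 1.15). It was under 1 in conventional dendritic cells, at 0.786 (0.638 to 0.969), and in plasmacytoid dendritic cells, at 0.655 (0.373 to 1.12). Slc16a3 was higher in GMP (36.2 against 17.6 CPM), early neutrophil (80.1 against 42.4) and monocyte cells (36.7 against 15.8), with ratios of 2.06, 1.89 and 2.33. In late neutrophil cells its ratio was 0.969 (0.835 to 1.13).

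Eno3 differed in the gates where it was highest. In monocyte cells it was at 28.7 CPM in A965 and 8.48 in A963 (3.38-fold, interval 2.88 to 3.98), and in conventional dendritic cells at 25.4 and 9.03 (2.81-fold, 1.58 to 5.39). In Mpo-high monocyte cells it was at 5.01 and 5.16 CPM. Slc2a3 and Pfkfb4 were higher in early neutrophil cells of A965 (46.7 against 21.2 and 41.4 against 22.8 CPM), and Slc2a3 was lower in its stem cells (15.3 against 34.6). Smaller differences ran through more gates: the interval of Gpi1 lay above 1 in 10 of 11 gates, with ratios of 0.980 to 1.73, and that of Gapdh in 8 of 11, with ratios of 0.858 to 1.44. Pgls ran the other way, with intervals under 1 in 8 of 11 gates. Intervals of genes with many counts are narrow and leave 1 at small ratios. How often those of all genes did so was not worked out.

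**Figure D4:**
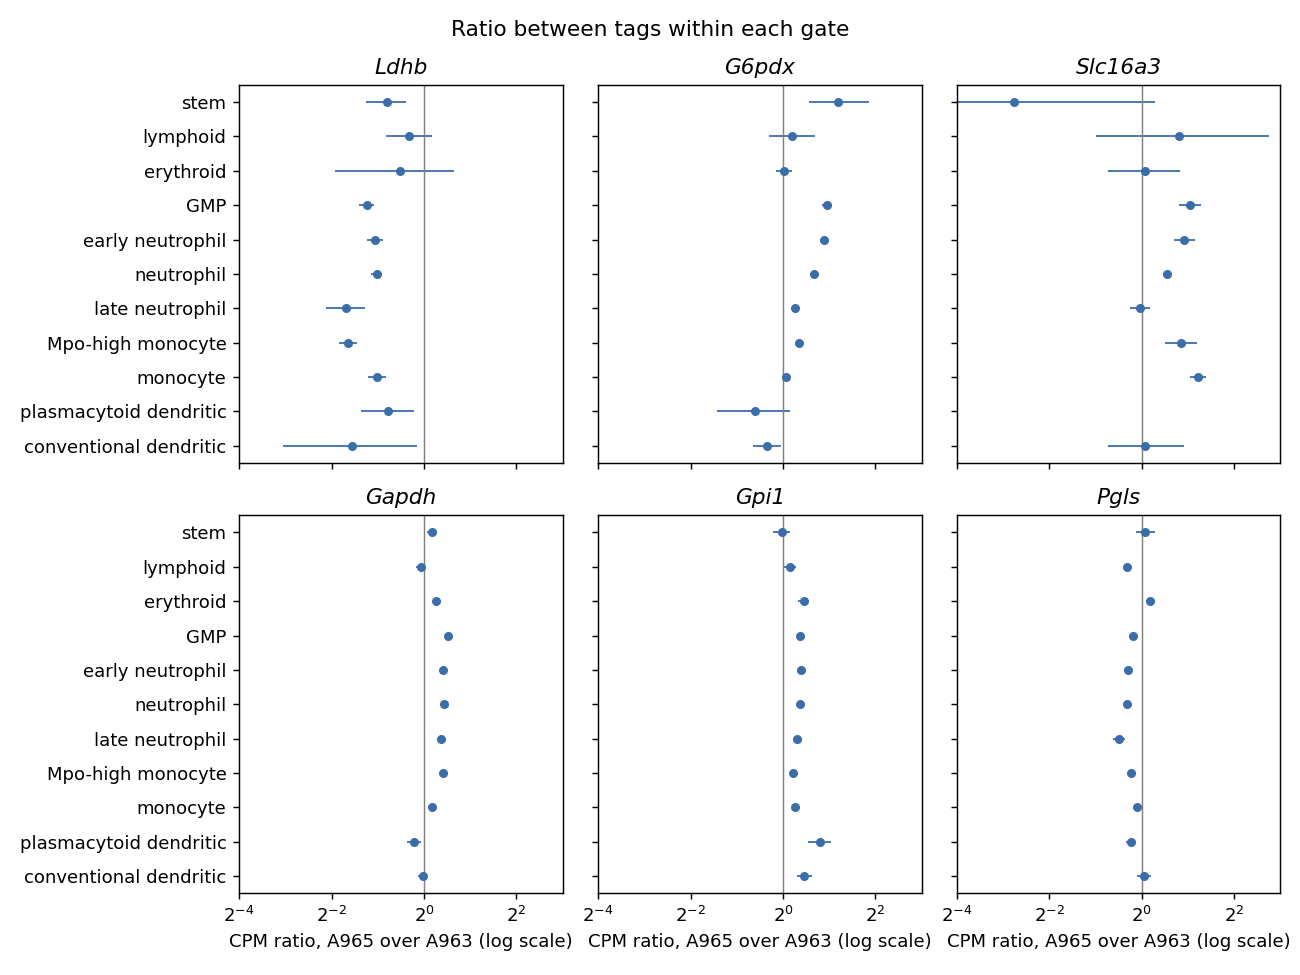
Ratio of CPM in A965 over A963 (log axis) in 11 gates for 6 members, with exact 95% counting intervals. These leave out the spread between mice and between cells. All points of Ldhb lie left of the line at 1, Gpi1 lies right of it in 10 gates, and the stem interval of Slc16a3 runs past the left edge; A965 had no Slc16a3 count in plasmacytoid dendritic cells, so no point is drawn.

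The tags also differed in sex-linked transcripts and depth. Xist was at 611 CPM in A963, 486 in A961 and 409 in A962, and at 59.7 in A964 and 11.8 in A965, and 4 Y-linked genes summed to 6.46, 39.2, 21.0, 86.0 and 79.5 CPM in the same order. G6pdx and Pgk1 lie on the X chromosome. Median totals were 27205 counts per cell in A965 and 20430.5 in A963. With 1 sample a tag, mouse, sex, sort and treatment cannot be told apart.

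The small tags held 68 (A961), 104 (A962) and 73 (A964) cells. Of these, 49, 26 and 44 were in the monocyte gate and 6, 39 and 7 in the Mpo-high monocyte gate. A962 thus held more usable cells than the 100 loaded. Whether cells carried a wrong tag was not tested, so the values below are those of cells named by tag. In monocyte cells Pgd was at 204 CPM in A961, 170 in A962 and 295 in A964, and Aldoa at 536, 573 and 753. Eno1 was at 353, 366 and 485 CPM, so A964 was highest for these 3 genes. Ldhb was at 47.2, 25.0 and 18.1 CPM, and Slc16a3 at 20.7, 35.0 and 40.1. Tpi1 was at 220, 220 and 212 CPM.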

How the data were processed

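One TAS-Seq library of tagged mouse bone marrow cells was analysed. The deposited values were raw counts, all whole numbers, with a column for each cell whose name gives its tag, per the file headers. Seurat 4.2.0, R 4.2.1 and the build GRCm38 are named in the submitters' processing notes, with no role. The aligner and the annotation are not given in the sources used here, nor is it stated if molecules or reads were counted. Values of 2 were 54.7% as many as values of 1, so repeated reads of 1 molecule may be among them. Counting intervals would then be too narrow. Of 10731 cells, 190 named as doublets and 6 without a tag were not used, and 7 with under 500 genes or over 20% mitochondrial counts were removed. Scrublet (scanpy 1.11.5) called 223 cells (2.12%), which stayed in.

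A gate needed at least 3 genes of its marker panel and a summed panel count per 10000 counts at or above its threshold: 5 for stem, 10 for lymphoid, megakaryocyte, monocyte and plasmacytoid dendritic, 20 for basophil/mast, 30 for erythroid, 50 for conventional dendritic, 100 for azurophil and 200 for secondary granule genes. Late neutrophil cells also needed 10 of Retnlg, Mmp8, Mmp9, Cxcr2 and Ly6g. Cells passing a pair of panels were placed as follows: stem and megakaryocyte as megakaryocyte, basophil/mast and azurophil as basophil/mast, monocyte and azurophil as Mpo-high monocyte, lymphoid and plasmacytoid dendritic as plasmacytoid dendritic, monocyte and conventional dendritic as conventional dendritic, and secondary granule and azurophil as early neutrophil. Cells with any other combination (426) or none (678) were left out. Counts were summed per gate or tag and divided by the total (Python 3.11.15, scipy 1.17.1). The ratio step was tested on simulated data. Gene positions are from GENCODE M21, which held all 34 symbols.

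The members and gene lists were chosen with earlier results of these data known. Thresholds were set after the markers and tags had been looked at. Members were given in full where their level differed by at least 3-fold between gates or 1.5-fold between A963 and A965 in any gate; of other lists, at most 4 genes called in a comparison. The globin threshold, the steps through intermediate gates, Fam129c and the sequences shown were chosen after values were seen.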

Additional observations from a re-analysis of the deposited data

How the results depend on the processing

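No paired analysis was possible because each tag is 1 sample and none is replicated. The 84 member differences that were counted gave 903 values under 12 alternatives, of which 902 kept their direction. The exception was Hk2 in plasmacytoid dendritic cells between A965 and A963. Its log2 ratio was -0.10 with cells placed by their highest marker score. Only differences already past the 1.5-fold rule entered, and each alternative reused the same library. Adding 1 CPM in place of 10, or leaving out genes under 10 CPM, cannot turn a direction. The tally is therefore no measure of how well the differences would repeat. The members' median log2 ratio of neutrophil over GMP turned to 0.054 under median-of-ratios scaling, with 8 members higher. With totals free of marker, globin and mitochondrial genes it was 0.048, also with 8 members higher. Shares of all genes were not worked out under any of the alternatives. With 1 CPM added in place of 10, 4 members were lower in late neutrophil cells, 2 higher in monocyte cells over GMP and 4 lower in A965 over all cells, and 7.22% and 8.82% of values within gates were higher and lower. Thinning to 8000 counts left 0 members higher in late neutrophil cells and 3 higher in A965 over all cells. For late neutrophil over neutrophil cells, 0 were higher without the Scrublet calls, with looser gates, with the highest marker score and in A965 alone; 0 were lower with looser gates and with the highest marker score, and 1 was lower under median-of-ratios scaling and in A963 alone. Stricter gates gave 8 members higher in erythroid over stem cells. Values within gates that were lower in A965 made up 2.41% with looser gates and 1.87% with the highest marker score. The cause of these shifts was not tested. Depth limits Eno2, Slc2a1 and Aldoc, and Pklr outside the erythroid gate.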
